A study of Mus musculus with 12 samples.

Results

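The genotype effect after 3 days of osteogenic induction was read from 6 of the 12 RNA sequencing libraries of the series, 3 from WT and 3 labelled Bcl3-/-, chosen by the day and genotype in their labels and by no measured value. Primary osteoblasts came from the calvariae, the flat bones of the skull, of neonatal C57BL/6J WT and Bcl3-/- littermates, with 3 calvariae pooled per replicate, so a library stands for a pooled culture and not for 1 animal. All 6 cultures had grown to confluence and then received 50 µg/ml L-ascorbic acid, which collagen assembly needs, and 2 mM β-glycerophosphate, a phosphate source. Each of the 6 also has a day 1 library whose label carries the same code, taken here to mark the same culture. The day 1 libraries entered the fit but are described only beside the day 3 values. The gene reads of the 6 libraries lay between 20009732 and 41144955. Unless another fit is named, the p-values below rest on a spread estimated over all 12 libraries, day 1 included. Libraries of the same code counted as independent in that fit. The p-values speak for these cultures only.

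BCL3 is an atypical member of the IκB family, a nuclear protein that binds the p50 and p52 subunits of NF-κB and changes which target genes they switch on. Osteoblasts lay down type I collagen, then mineralize it with alkaline phosphatase and with a balance of phosphate and its inhibitor pyrophosphate. They also signal to osteoclasts, the cells that resorb bone, through RANKL and its decoy receptor osteoprotegerin. Calvarial cultures are not pure, and can hold macrophages and other resident cells beside osteoblasts.

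Bcl3 (ENSMUSG00000053175, chr7:19808462-19822770, minus strand, GRCm38) was counted at 14.8, 15.9 and 12.8 CPM in WT against 10.2, 9.72 and 8.31 CPM in Bcl3-/-. The groups did not overlap, and the labelled libraries kept a mean of 0.652 times the WT level (log2 fold change -0.62, SE 0.12, edgeR adjusted p = 0.00863). The call was lost with the title number as a replicate block (adjusted p = 0.0534) and on log2(FPKM + 1) in limma (adjusted p = 0.0603). On day 1 Bcl3 was at 17.95, 21.8 and 17.8 CPM in WT and at 17.5, 19.7 and 19.2 CPM in Bcl3-/-, and the groups overlapped. Which part of the gene was deleted is not given in the labels, and reads of a remaining transcript count here, so Bcl3-/- stands below for the libraries with that label. Col1a1, the main collagen of bone, was at 47045, 46164 and 49263 CPM in WT against 47401, 44806 and 46061 CPM in Bcl3-/-. Runx2, the transcription factor that commits cells to the osteoblast fate, was at 51.9, 51.5 and 59.2 CPM in WT against 50.9, 45.6 and 60.3 CPM in Bcl3-/-. Both genes overlapped between the genotypes (log2 fold change -0.04, SE 0.11, edgeR adjusted p = 0.848, and log2 fold change -0.05, SE 0.10, edgeR adjusted p = 0.781).

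In the day 3 contrast 780 of 16318 genes tested rose and 913 fell in Bcl3-/-, at a Benjamini-Hochberg adjusted p under 0.05 in edgeR's quasi-likelihood test. This is a background of 4.78% of genes called higher and 5.60% called lower, 10.4% together, against which counts in gene lists are read here. A change of more than 1 on the log2 scale (2-fold) was called for 308 higher (1.89%) and 195 lower genes (1.19%). The 3 libraries of each genotype did not overlap for 4685 genes (28.7%), and this held for 778 of the higher and 904 of the lower calls. A fit of the 6 day 3 libraries alone, in place of all 12, called 814 of 15462 genes (5.26%), 486 higher (3.14%) and 328 lower (2.12%), and 776 genes were called in the same direction by both. Rises made up 59.7% of the calls there, against 46.1%. Without WT replicate 1 or Bcl3-/- replicate 2 the total of 1693 came to 698, and without WT replicate 2 to 1107. Of 142 called genes named by the rule in the methods, 84 stayed called whichever library was left out.

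The 3 libraries labelled Bcl3-/- did not lie together. On the first principal component of log2 CPM (gene counts scaled to a common library size), which held 55.3% of the variance, WT replicates 1, 2 and 3 scored -51.1, -30.6 and -21.1. Replicates 1, 2 and 3 labelled Bcl3-/- scored 3.77, 47.4 and 51.6, so that replicate 1 lay between WT and the other two. On the second component (19.0%) replicates 1, 2 and 3 labelled Bcl3-/- were spread from 33.4 through 13.6 to -33.0, and WT between -24.2 and 9.17. Euclidean distances over all genes tested were 53.4 to 60.05 log2 units within WT and 64.3 to 84.3 within the labelled group. The shortest distance between genotypes, 59.0 from WT replicate 3 to Bcl3-/- replicate 1, was below every distance within the labelled group.

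**Figure D1:**
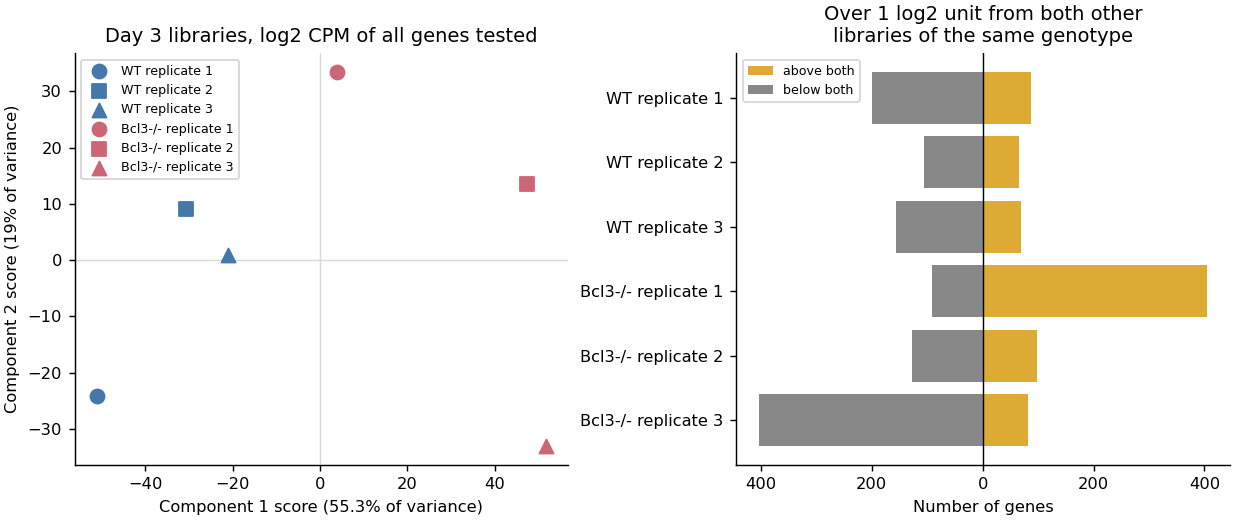
Left, scores of the 6 day 3 libraries on principal components 1 and 2 of log2 CPM over 16318 genes, WT blue and Bcl3-/- red, with the marker giving the replicate. Right, number of genes in which a library lies more than 1 log2 unit above (gold) or below (grey) both other libraries of its genotype. Bcl3-/- replicate 1 was above for 405 genes and Bcl3-/- replicate 3 below for 404, of which 46 and 43 had a mean of at least 5 CPM.

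The spread was not shared evenly among genes. The biological coefficient of variation, edgeR's measure of replicate scatter, was 16.7% in day 3 libraries labelled Bcl3-/-, 13.9% in day 3 WT, 13.6% in day 1 WT and 9.28% in day 1 libraries labelled Bcl3-/-. For the median gene the SD of log2 CPM was 0.178 in the labelled group and 0.166 in WT, a ratio of 1.07, and 54.8% of genes had the larger SD in the labelled group. Sets of genes in single libraries stood out instead. Replicate 1 labelled Bcl3-/- lay more than 1 log2 unit above both others for 405 genes, and replicate 3 below both others for 404. For each count the other 5 libraries gave 65 to 98 genes above and 92 to 200 below. Most of these genes were at low levels. Of the 405 and 404 genes, 46 and 43 had a mean of at least 5 CPM over the 6 libraries, against 10746 of all 16318 genes tested.

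Genes of antigen-presenting cells were among those that set replicate 1 labelled Bcl3-/- apart. Ccr7, the chemokine receptor of migrating dendritic cells, was at 74.8, 42.8 and 65.05 CPM in WT against 58.2, 0.583 and 0.473 CPM in Bcl3-/-. H2-Aa, a chain of MHC class II, the complex that presents antigen to helper T cells, was at 90.1, 55.4 and 46.6 CPM in WT against 48.6, 2.40 and 1.16 CPM in Bcl3-/-. Cd74, the invariant chain that escorts MHC class II, was at 285, 191 and 160.1 CPM in WT against 166, 8.97 and 7.10 CPM in Bcl3-/-. WT and replicate 1 were alike in level for these genes, and replicates 2 and 3 labelled Bcl3-/- were far below all 4. Ccl22, a dendritic cell chemokine, was at 39.7, 22.8 and 19.5 CPM in WT against 17.6, 0.0972 and 0.0526 CPM in Bcl3-/-, and Il1b, the inflammatory cytokine interleukin 1β, at 13.8, 10.2 and 9.63 CPM in WT against 9.27, 0.0324 and 0.210 CPM in Bcl3-/-. Flt3, the growth factor receptor of dendritic cell precursors, was at 7.71, 4.42 and 4.21 CPM in WT against 4.72, 0 and 0.0526 CPM in Bcl3-/-.

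A list of 25 MHC class II and dendritic cell genes was written after these values were seen, so it is described and not tested. In 20 of the 25, replicate 1 labelled Bcl3-/- stood more than 1 log2 unit above replicates 2 and 3. Of 23 with a count in replicate 2 or 3, the median ratio of replicate 1 to the higher of the other two was 17.3, with 18 over 5-fold and a range from 0.598 to 181. The immunoglobulin genes Igha, Igkc and Jchain, made by plasma cells, had the same pattern with ratios of 52.9 to 154. By contrast the 20 macrophage markers had ratios of 0.861 to 3.92 and a median of 1.45. Lyz2, the lysozyme of myeloid cells, was at 499.9, 555 and 800.1 CPM in WT against 648, 472 and 323 CPM in Bcl3-/-. All but 1 of the 20, Mrc1, had negative day 3 fold changes (19 of 20, median -0.64), and 2 of them were called. All 6 day 1 libraries held the dendritic cell genes, with Ccr7 at 135, 83.99 and 67.6 CPM in WT then and at 44.4, 63.5 and 65.6 CPM in day 1 libraries labelled Bcl3-/-. In bulk RNA, fewer cells of a type and less RNA per cell cannot be told apart.

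**Figure D2:**
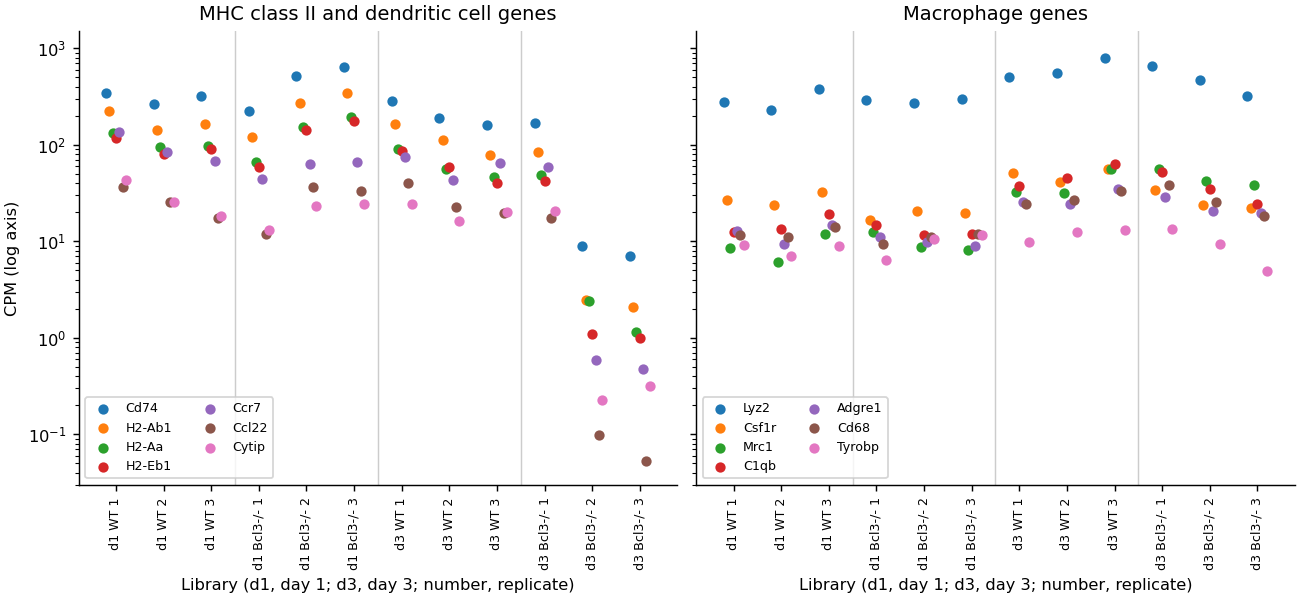
CPM (log axis) of 7 MHC class II and dendritic cell genes (left) and 7 macrophage genes (right) in all 12 libraries, each point 1 gene in 1 library. The left genes stay in 1 band in 10 libraries and drop in day 3 Bcl3-/- replicates 2 and 3, where Ccr7 is at 0.583 and 0.473 CPM, and on the right Lyz2 is at 648, 472 and 323 CPM in day 3 Bcl3-/- replicates 1, 2 and 3.

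Few of these genes entered the calls. Of the 25, 1 was called lower (5.6% of all genes were), the costimulatory ligand Cd80, at 7.85, 5.92 and 3.94 CPM in WT against 1.92, 3.21 and 2.47 CPM in Bcl3-/- (log2 fold change -1.21, SE 0.26, edgeR adjusted p = 0.0123). Cd80 lost its edgeR call without WT replicate 1 (adjusted p = 0.0542). Without replicate 1 labelled Bcl3-/-, the falls of more than 1 on the log2 scale went from 195 to 460, and the rises from 308 to 311. Of the 405 genes high in that replicate, 367 were also higher in all 3 WT libraries than in replicates 2 and 3.

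Replicate 3 labelled Bcl3-/- stood apart in another set of genes. It had the fewest gene reads of the 12 libraries. Of its 404 low genes 149 were not protein-coding, as were 126 of the 405 genes high in replicate 1 and 2405 of all 16318 genes tested. Cytosolic ribosomal protein genes, 81 in all, summed to 7183, 11296 and 8239 CPM in WT replicates 1, 2 and 3 and to 12199, 11143 and 6686 CPM in Bcl3-/- replicates 1, 2 and 3. Of these 81 genes, 7 were among the 404 low genes. In replicate 3 labelled Bcl3-/-, 98.8% of the 81 lay below the mean of the other two, by a median of -0.95 log2 units. The 233 protein-coding genes whose longest annotated transcript is under 800 bases gave the same order, from 5795 CPM in Bcl3-/- replicate 3 and 6172 CPM in WT replicate 1 to 11361 CPM in Bcl3-/- replicate 1. Ribosomal protein genes were not removed from this set, so it is not independent of the former. Genes with transcripts over 4000 bases went the other way, summing to 500439 CPM in Bcl3-/- replicate 3 and 435704 CPM in Bcl3-/- replicate 1. These library differences cross the genotypes, and their part in single gene calls was not tested. Mitochondrially encoded mRNAs summed to 3027 to 3700 CPM in WT and 3377 to 4720 CPM in the labelled libraries, and 2 of 13 were called higher. That count ranged from 0 without WT replicate 1 to 7 without Bcl3-/- replicate 3. It was 0 with the title number as a replicate block.

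Another gene set varied within both genotypes. Ddx3y, a gene of the Y chromosome, was at 2.04, 69.5 and 27.7 CPM in WT against 1.33, 77.7 and 36.2 CPM in Bcl3-/-, low in replicate 1 of both genotypes and higher in the other 4 libraries. The 4 Y-linked genes examined summed to 4.01, 135.9 and 51.9 CPM in WT, with 3.25, 150.5 and 75.3 CPM in the labelled libraries.

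The largest rises at usable levels were of secreted, metabolic and signalling genes. Car3, carbonic anhydrase 3, an enzyme abundant in fat and slow muscle, was at 0.352, 0.706 and 0.301 CPM in WT against 22.9, 17.8 and 8.26 CPM in Bcl3-/- (log2 fold change 5.18, SE 0.53, edgeR adjusted p = 0.000547). Scg2, secretogranin II, a protein of secretory granules, was at 1.51, 2.55 and 6.55 CPM in WT against 39.7, 46.8 and 32.7 CPM in Bcl3-/- (log2 fold change 3.46, SE 0.43, edgeR adjusted p = 0.00135). Egfl6, an EGF repeat matrix protein, was at 87.5, 102 and 202 CPM in WT against 618, 866 and 736 CPM in Bcl3-/- (log2 fold change 2.50, SE 0.42, edgeR adjusted p = 0.0041). All 3 genes were far above the WT range in every labelled library. The others of the 12 largest were Galnt9, Chodl, Arhgap20, Adh1, Prlr, Grik1, Sfrp2, Fxyd1 and Steap4, with log2 fold changes from 2.24 to 2.98. Adh1, an alcohol dehydrogenase that also oxidizes retinol, was at 5.56, 9.82 and 12.2 CPM in WT against 49.3, 60.3 and 45.6 CPM in Bcl3-/-. Prlr, the prolactin receptor, was at 0.774, 1.44 and 2.16 CPM in WT against 7.38, 10.5 and 6.68 CPM in Bcl3-/-. Sfrp2 lost its edgeR call without WT replicate 1 (adjusted p = 0.0929), WT replicate 2 (0.0725) or Bcl3-/- replicate 2 (0.0631).

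The largest fall was that of Cx3cr1, the fractalkine receptor of macrophages and microglia, at 10.8, 7.55 and 10.4 CPM in WT against 1.17, 1.36 and 0.210 CPM in Bcl3-/- (log2 fold change -3.29, SE 0.42, edgeR adjusted p = 0.00146). It was low in replicate 1 labelled Bcl3-/- as well, unlike the dendritic cell genes. Sema3e, a secreted guidance cue that binds plexin D1, was at 90.8, 56.4 and 44.4 CPM in WT against 19.2, 17.6 and 16.6 CPM in Bcl3-/- (log2 fold change -1.84, SE 0.21, edgeR adjusted p = 0.00105). Ptgs2, cyclooxygenase 2, which makes prostaglandins and is a known target of NF-κB, was at 85.4, 42.9 and 33.5 CPM in WT against 16.7, 13.5 and 15.6 CPM in Bcl3-/- (log2 fold change -1.82, SE 0.36, edgeR adjusted p = 0.00878). Within WT, Sema3e and Ptgs2 were highest in replicate 1 and the labelled libraries lay close together. The others of the 12 were Serinc2, Crct1, Gjb2, Coch, Zfp526, Slc20a1, Gpr183, Ptprn and Klc3, between -2.17 and -1.58. Gjb2 lost its edgeR call without Bcl3-/- replicate 2 (adjusted p = 0.0645). Coch lost its edgeR call without WT replicate 1 (adjusted p = 0.0588) or Bcl3-/- replicate 2 (0.0645). Gpr183 lost its edgeR call without WT replicate 1 (adjusted p = 0.115), WT replicate 2 (0.052) or Bcl3-/- replicate 2 (0.109). Gpr183 (adjusted p = 0.093) lost its edgeR call in the fit of the 6 day 3 libraries alone. In limma-voom with the culture as a random effect, which pairs the days, Coch was not called either (adjusted p = 0.0998).

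**Figure D3:**
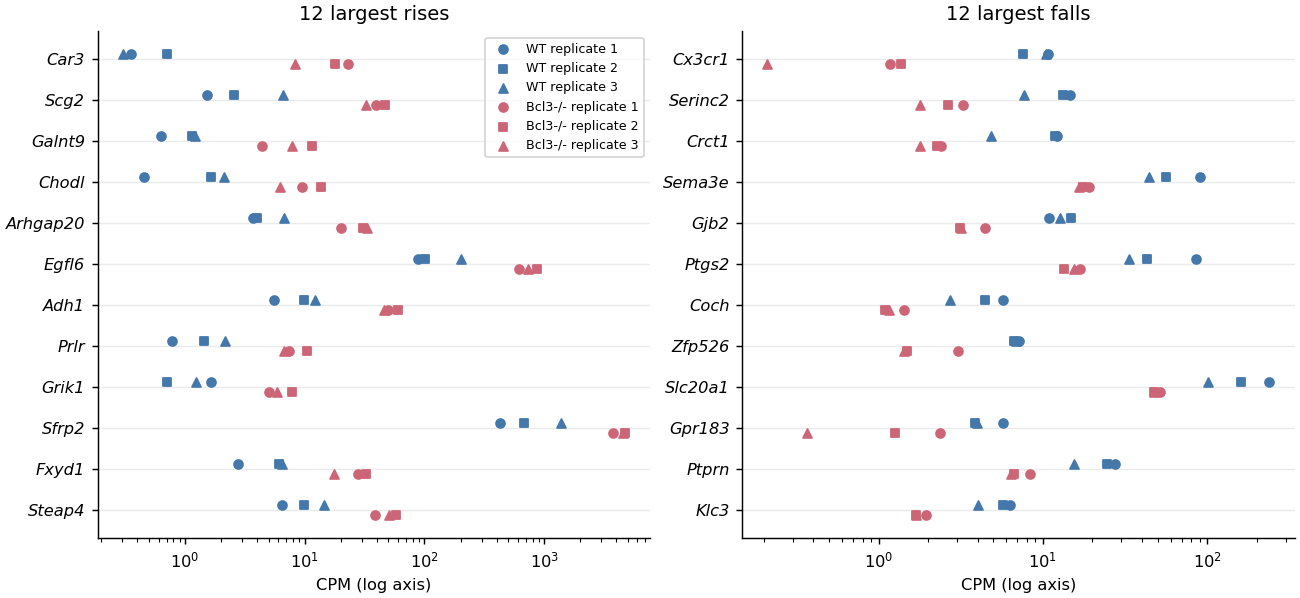
CPM (log axis) of the 12 largest rises (left) and 12 largest falls (right) among called protein-coding genes whose groups do not overlap, 1 point per library, WT blue and Bcl3-/- red. Groups are apart in every row by the rule that chose the genes; Car3 is between 8.26 and 22.9 CPM in Bcl3-/- and at most 0.706 CPM in WT.

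Of 14 osteoblast transcription factors, 3 were higher, 3 lower and 8 not called, with a median log2 fold change of -0.02 against -0.00 over all genes. Msx2, a homeobox factor of skull growth, was at 198, 151 and 132 CPM in WT against 73.9, 54.9 and 64.1 CPM in Bcl3-/- (log2 fold change -1.32, SE 0.17, edgeR adjusted p = 0.00178). Alx4, another homeobox factor of the calvaria, was lower, at -0.47 on the log2 scale. Sox4, Twist1 and Twist2, the last 2 known to restrain Runx2, were higher by 0.47, 0.46 and 0.99. Sp7 (osterix), which acts after Runx2, was at 10.2, 12.8 and 14.1 CPM in WT against 18.8, 12.4 and 18.7 CPM in Bcl3-/- and was not called (log2 fold change 0.42, SE 0.21, edgeR adjusted p = 0.218). Twist1 lost its edgeR call without WT replicate 1 (adjusted p = 0.0859) or Bcl3-/- replicate 2 (0.0565). Twist2 lost its edgeR call without WT replicate 1 (adjusted p = 0.0572). Alx4 (adjusted p = 0.0534) lost its edgeR call in the fit of the 6 day 3 libraries alone.

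Of 22 genes of bone matrix and mineralization, 6 were higher and 4 lower, 27.3% and 18.2% of the list. Alpl (chr4:137741733-137796384, minus strand), the alkaline phosphatase that breaks down pyrophosphate and frees phosphate, was at 10.6, 19.5 and 19.3 CPM in WT against 55.5, 57.7 and 55.7 CPM in Bcl3-/- (log2 fold change 1.77, SE 0.22, edgeR adjusted p = 0.00135). The 3 labelled libraries lay close together and all above WT. The genes that make or export pyrophosphate moved the other way. Enpp1, which makes pyrophosphate outside the cell, was at 53.9, 48.98 and 30.8 CPM in WT against 14.2, 18.2 and 13.4 CPM in Bcl3-/- (log2 fold change -1.54, SE 0.21, edgeR adjusted p = 0.00215). Ank, the pyrophosphate exporter, was at 64.5, 60.03 and 52.4 CPM in WT against 33.5, 34.8 and 30.1 CPM in Bcl3-/- (log2 fold change -0.84, SE 0.12, edgeR adjusted p = 0.00215). Slc20a1, the phosphate importer PiT-1, was at 239, 159 and 101 CPM in WT against 51.9, 47.5 and 47.8 CPM in Bcl3-/- (log2 fold change -1.76, SE 0.26, edgeR adjusted p = 0.00255). All 4 calls held whichever of the day 3 libraries was left out.

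Spp1, osteopontin, an abundant matrix phosphoprotein that binds mineral and inhibits its growth, was at 3317, 3799 and 3095 CPM in WT against 1599.9, 1389 and 1094 CPM in Bcl3-/- (log2 fold change -1.32, SE 0.16, edgeR adjusted p = 0.00121). Every labelled library was below every WT library. Bglap, osteocalcin, a marker of late osteoblasts, was at 0.387, 0.706 and 0.778 CPM in WT against 3.54, 3.92 and 2.00 CPM in Bcl3-/- (log2 fold change 2.33, SE 0.38, edgeR adjusted p = 0.00375), and its neighbour copy Bglap2 at 1.02, 2.18 and 1.68 CPM in WT against 6.96, 7.55 and 3.79 CPM in Bcl3-/- (log2 fold change 1.91, SE 0.34, edgeR adjusted p = 0.00525). Bglap, Bglap2 and Bglap3 are near-identical, so how reads were split among them is uncertain, and replicate 3 labelled Bcl3-/-, low in short transcripts, was the lowest of its group for both. Smpd3, a sphingomyelinase that mineralization needs, was at 0.598, 0.675 and 0.351 CPM in WT against 1.69, 2.59 and 2.00 CPM in Bcl3-/- (log2 fold change 1.97, SE 0.37, edgeR adjusted p = 0.00769). Ibsp, bone sialoprotein, was at 3.13, 6.14 and 4.57 CPM in WT against 12.7, 24.1 and 13.1 CPM in Bcl3-/- and was not called, although the groups did not overlap (log2 fold change 1.85, SE 0.86, edgeR adjusted p = 0.19). Panx3 lost its edgeR call without WT replicate 1 (adjusted p = 0.132), WT replicate 2 (0.0794) or Bcl3-/- replicate 2 (0.163). Tnn lost its edgeR call without WT replicate 1 (adjusted p = 0.131), WT replicate 3 (0.0812), Bcl3-/- replicate 2 (0.063) or Bcl3-/- replicate 3 (0.0749). Panx3, a channel of maturing osteoblasts, and Tnn, tenascin W, were the other higher genes, at 1.19 and 0.77.

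**Figure D4:**
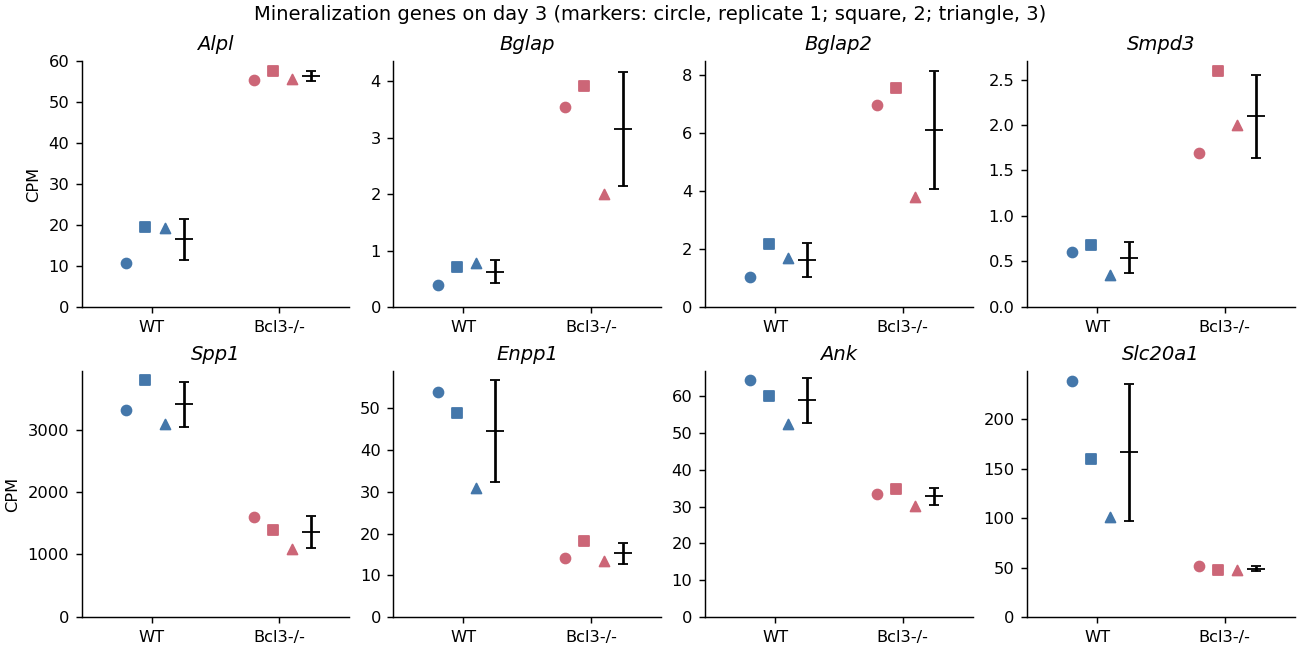
CPM on linear axes from 0 of 8 mineralization genes in the 3 WT and 3 Bcl3-/- libraries of day 3, with the mean ± SD (n = 3) beside the points. Alpl, Bglap, Bglap2 and Smpd3 are higher and Spp1, Enpp1, Ank and Slc20a1 lower in Bcl3-/-, and no pair of groups overlaps.

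Of 26 fibrillar collagens and associated genes, 3 were higher and 0 lower. Eln, elastin, was at 25.5, 52.02 and 40.3 CPM in WT against 111, 196 and 92.1 CPM in Bcl3-/- (log2 fold change 1.76, SE 0.35, edgeR adjusted p = 0.00881), and Col14a1, a collagen that sits on fibrils, was higher by 1.43. All 11 small leucine-rich proteoglycans, which regulate fibril assembly, had positive fold changes with a median of 0.73, and 3 passed the test, Ogn (0.89), Ecm2 (0.84) and Prelp (0.80). Of 20 collagen processing genes 3 were higher and 3 lower. The lysyl oxidase-like cross-linkers Loxl3 (-0.81) and Loxl4 (-1.01) were lower, and the procollagen proteinase Adamts2 (0.61) and its enhancer Pcolce (0.44) higher. Of 17 matrix proteases and inhibitors 5 were higher and 0 lower, led by Mmp11 at 21.2, 25.01 and 24.3 CPM in WT against 36.4, 43.8 and 42.8 CPM in Bcl3-/- (log2 fold change 0.80, SE 0.09, edgeR adjusted p = 0.00105) and the aggrecanase Adamts5 at 0.67. Col14a1 lost its edgeR call without WT replicate 1 (adjusted p = 0.0622) or Bcl3-/- replicate 2 (0.0515). Ogn lost its edgeR call without WT replicate 1 (adjusted p = 0.0613) or Bcl3-/- replicate 2 (0.065). Ecm2 lost its edgeR call without WT replicate 1 (adjusted p = 0.0812), WT replicate 2 (0.0632) or Bcl3-/- replicate 2 (0.0765). Prelp lost its edgeR call without WT replicate 1 (adjusted p = 0.0892), WT replicate 2 (0.0756), Bcl3-/- replicate 2 (0.0699) or Bcl3-/- replicate 3 (0.0621). Adamts2 lost its edgeR call without WT replicate 1 (adjusted p = 0.0968), WT replicate 2 (0.0572), Bcl3-/- replicate 2 (0.0591) or Bcl3-/- replicate 3 (0.058). Pcolce lost its edgeR call without WT replicate 1 (adjusted p = 0.0981), Bcl3-/- replicate 2 (0.0695) or Bcl3-/- replicate 3 (0.0517).

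Wnt signals drive osteoblasts forward, and are held back by secreted inhibitors. Of 24 Wnt ligands, receptors and R-spondins, 5 were higher and 3 lower. Wnt16, a ligand known to protect cortical bone, was at 4.26, 4.76 and 8.25 CPM in WT against 16.4, 20.5 and 27.1 CPM in Bcl3-/- (log2 fold change 1.87, SE 0.30, edgeR adjusted p = 0.00358). Fzd4, a Wnt receptor, was at 11.5, 10.5 and 15.7 CPM in WT against 26.7, 47.1 and 48.1 CPM in Bcl3-/- (log2 fold change 1.69, SE 0.24, edgeR adjusted p = 0.00242). Rspo2 and Rspo3, secreted proteins that keep Wnt receptors at the membrane, were higher by 1.17 and 1.30. Fzd6 (-0.83), Wnt9a (-0.52) and Wnt2 (-1.06) were lower. Fzd6 lost its edgeR call without WT replicate 1 (adjusted p = 0.0542) or Bcl3-/- replicate 2 (0.0611). Wnt9a lost its edgeR call without WT replicate 2 (adjusted p = 0.0731) or Bcl3-/- replicate 2 (0.0834). Wnt2 lost its edgeR call in 6 of the 6 fits that left out a day 3 library (adjusted p = 0.0547 to 0.146). Wnt9a (adjusted p = 0.0657) lost its edgeR call in the fit of the 6 day 3 libraries alone.

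Of the secreted Wnt antagonists, those of the Sfrp family were higher. Sfrp1, a decoy that binds Wnt proteins, was at 633, 567 and 752 CPM in WT against 1380.1, 2055 and 2277 CPM in Bcl3-/- (log2 fold change 1.55, SE 0.27, edgeR adjusted p = 0.005). Sfrp4, of the same family, was at 8.30, 10.5 and 8.60 CPM in WT against 23.2, 21.6 and 16.5 CPM in Bcl3-/- (log2 fold change 1.17, SE 0.14, edgeR adjusted p = 0.00124). Sfrp2 was at 427, 679 and 1394 CPM in WT against 3755, 4718 and 4557 CPM in Bcl3-/- (log2 fold change 2.38, SE 0.57, edgeR adjusted p = 0.0213). With Frzb and Nkd1, 5 of the 16 measured antagonists and targets were higher and 0 lower, and the target gene Axin2 was not called, at -0.20. Dkk1 and Sost, well-known antagonists, had 0 to 5 reads per library and were not tested. Sfrp2 lost its edgeR call without WT replicate 1 (adjusted p = 0.0929), WT replicate 2 (0.0725) or Bcl3-/- replicate 2 (0.0631). Frzb lost its edgeR call in 5 of the 6 fits that left out a day 3 library, all but that without WT replicate 3 (adjusted p = 0.0665 to 0.133). Nkd1 lost its edgeR call without WT replicate 1 (adjusted p = 0.0631), Bcl3-/- replicate 1 (0.0591), Bcl3-/- replicate 2 (0.0627) or Bcl3-/- replicate 3 (0.0556). Nkd1 (adjusted p = 0.0695) lost its edgeR call in the fit of the 6 day 3 libraries alone.

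Of 24 genes of BMP and TGF-β signalling, 5 were higher and 2 lower. Chrdl1, a BMP antagonist, was at 62.98, 79.9 and 117 CPM in WT against 244, 330.5 and 386 CPM in Bcl3-/- (log2 fold change 1.89, SE 0.30, edgeR adjusted p = 0.00356). Id4 (1.01), Id1 (0.75) and Id2 (0.57), targets of BMP signals, and the ligand Tgfb2 (0.77) were higher. Ltbp1, which stores latent TGF-β in the matrix, was at 496, 349.8 and 312 CPM in WT against 167, 141 and 157 CPM in Bcl3-/- (log2 fold change -1.32, SE 0.15, edgeR adjusted p = 0.00112), and the activin subunit gene Inhba was lower, at -0.89. The number called higher ranged from 3 without WT replicate 1 to 8 without WT replicate 3, and was 10 in DESeq2. Among 10 insulin-like growth factor genes, the binding proteins Igfbp4 (0.93), Igfbp3 (1.36) and Igfbp5 (0.99) were higher and 0 genes lower. Igfbp4 was at 984, 1447 and 1518 CPM in WT against 2258, 2735 and 2545 CPM in Bcl3-/- (log2 fold change 0.93, SE 0.16, edgeR adjusted p = 0.00475). Id1 lost its edgeR call without WT replicate 1 (adjusted p = 0.0782), WT replicate 2 (0.0562) or Bcl3-/- replicate 2 (0.0743). Id2 lost its edgeR call without WT replicate 1 (adjusted p = 0.147), WT replicate 2 (0.0592), Bcl3-/- replicate 1 (0.0947) or Bcl3-/- replicate 2 (0.115). Inhba lost its edgeR call without WT replicate 1 (adjusted p = 0.0767), WT replicate 2 (0.0545) or Bcl3-/- replicate 2 (0.0648). Igfbp3 lost its edgeR call without WT replicate 1 (adjusted p = 0.116), WT replicate 2 (0.0629) or Bcl3-/- replicate 2 (0.0937). Igfbp5 lost its edgeR call without WT replicate 1 (adjusted p = 0.105), WT replicate 2 (0.0722), Bcl3-/- replicate 2 (0.0654) or Bcl3-/- replicate 3 (0.069).

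Signals from osteoblasts to osteoclasts were mixed, with 2 of 12 higher and 4 lower. Tnfsf11, which encodes RANKL, was at 6.65, 8.13 and 5.87 CPM in WT against 5.33, 9.33 and 7.52 CPM in Bcl3-/- and overlapped (log2 fold change 0.10, SE 0.22, edgeR adjusted p = 0.806). Its decoy osteoprotegerin, Tnfrsf11b, was at 129.8, 84.3 and 55.4 CPM in WT against 36.3, 41.7 and 42.9 CPM in Bcl3-/- (log2 fold change -1.16, SE 0.28, edgeR adjusted p = 0.0213). Il1rl1, the receptor of interleukin 33, was lower, at -1.14, and Cxcl12, a chemokine that holds blood precursors in the marrow, was at 281, 341 and 300.0 CPM in WT against 452, 688 and 621 CPM in Bcl3-/- (log2 fold change 0.93, SE 0.14, edgeR adjusted p = 0.00305). Efnb2, an ephrin ligand, was higher by 0.51, and Sema3a, a repellent of osteoclast precursors, lower, at -0.68. Tnfrsf11b lost its edgeR call without WT replicate 1 (adjusted p = 0.0937), Bcl3-/- replicate 1 (0.0534) or Bcl3-/- replicate 2 (0.0691). Efnb2 lost its edgeR call without WT replicate 2 (adjusted p = 0.0561) or Bcl3-/- replicate 2 (0.0576). Sema3a lost its edgeR call without WT replicate 1 (adjusted p = 0.0771) or Bcl3-/- replicate 2 (0.0742). Tnfrsf11b (adjusted p = 0.0536) lost its edgeR call in the fit of the 6 day 3 libraries alone.

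Of 16 NF-κB family genes, 0 were higher and 4 lower, Rel, Tnfaip3, Nfkbiz and Bcl3 itself, and 14 of the 16 had negative fold changes with a median of -0.27. Rel, the subunit c-Rel, was at 29.9, 25.5 and 28.6 CPM in WT against 17.98, 13.8 and 18.5 CPM in Bcl3-/- (log2 fold change -0.74, SE 0.14, edgeR adjusted p = 0.00844). Tnfaip3, which encodes the inhibitor A20, was at 16.9, 13.5 and 14.9 CPM in WT against 11.8, 4.89 and 5.57 CPM in Bcl3-/- (log2 fold change -1.01, SE 0.26, edgeR adjusted p = 0.031), with replicate 1 labelled Bcl3-/- near the WT range as in the dendritic cell genes. Tnfaip3 lost its edgeR call in 5 of the 6 fits that left out a day 3 library, all but that without Bcl3-/- replicate 1 (adjusted p = 0.0519 to 0.115). Nfkbiz lost its edgeR call in 5 of the 6 fits that left out a day 3 library, all but that without WT replicate 3 (adjusted p = 0.0572 to 0.16). Tnfaip3 (adjusted p = 0.117) and Nfkbiz (0.0967) lost their edgeR calls in the fit of the 6 day 3 libraries alone. Without replicate 1 labelled Bcl3-/- 6 of the list were called lower, and without any other day 3 library 2 or 3. The DNA site that NF-κB dimers bind, the κB motif, was searched on both strands in RefSeq promoters of GRCm38.p6 (250 bases before to 50 after the start). Of the 4 genes called lower, 3 had a promoter in the table, and these 3 are shown because each holds a match. Over the whole family, called or not, 6 of the 12 genes with a promoter in the table (50%) held one, against 8.46% of all 32851 promoters. As the table covers 75% of the family, that share is void as a property of the list. The stretches run 5′ to 3′ along the gene from 140 bases before the start to 20 bases from it on, with matches in capitals.
Rel (chr11:23770950-23771109, minus strand): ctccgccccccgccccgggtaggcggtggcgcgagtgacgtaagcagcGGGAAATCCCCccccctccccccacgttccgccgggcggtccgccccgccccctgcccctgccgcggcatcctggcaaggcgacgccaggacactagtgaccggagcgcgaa
Tnfaip3 (chr10:19015391-19015550, minus strand): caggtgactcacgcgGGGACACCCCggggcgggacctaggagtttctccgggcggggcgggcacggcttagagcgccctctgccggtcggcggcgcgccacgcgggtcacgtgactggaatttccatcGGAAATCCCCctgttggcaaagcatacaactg
Bcl3 (chr7:19822736-19822895, minus strand): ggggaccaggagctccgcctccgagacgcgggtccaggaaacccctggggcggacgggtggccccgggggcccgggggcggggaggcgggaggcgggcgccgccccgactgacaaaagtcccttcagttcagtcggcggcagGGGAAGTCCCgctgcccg
In Rel 2 matches overlap into a single run about 92 bases before the start. Tnfaip3 holds 1 match 125 bases and 1 match 12 bases before the start, and that of Bcl3 begins just inside the transcribed part. A match is a description of letters and not a measured binding site.

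Inflammatory genes did not move as a block. Of 23 measured cytokines, chemokines and acute-phase genes, 2 were higher and 3 lower. Steap4, a metalloreductase induced by inflammation, was at 6.40, 9.94 and 14.5 CPM in WT against 38.5, 58.1 and 50.5 CPM in Bcl3-/- (log2 fold change 2.24, SE 0.27, edgeR adjusted p = 0.00114), and Hp, haptoglobin, was higher from a low level. Lif, a cytokine of the interleukin 6 family, was at 8.87, 7.64 and 4.74 CPM in WT against 2.89, 2.79 and 3.31 CPM in Bcl3-/- (log2 fold change -1.24, SE 0.23, edgeR adjusted p = 0.00643), and Cxcl14 was lower, at -0.73. Without replicate 1 labelled Bcl3-/- 7 were called lower. Hp lost its edgeR call without WT replicate 1 (adjusted p = 0.0531) or Bcl3-/- replicate 2 (0.0546). Of 14 measured complement genes 6 were higher (42.9%) and 0 lower. C3, the central component, was at 9.29, 10.99 and 18.1 CPM in WT against 37.9, 59.7 and 67.5 CPM in Bcl3-/- (log2 fold change 2.09, SE 0.28, edgeR adjusted p = 0.00189). C4b, of the classical pathway, was at 15.5, 15.7 and 12.9 CPM in WT against 45.3, 67.9 and 54.8 CPM in Bcl3-/- (log2 fold change 1.93, SE 0.19, edgeR adjusted p = 0.000547). Serping1, the C1 inhibitor, was at 40.9, 60.6 and 78.97 CPM in WT against 145, 205 and 153 CPM in Bcl3-/- (log2 fold change 1.48, SE 0.28, edgeR adjusted p = 0.00812), and Cfb and C1ra were among the others, at 1.71 and 0.80. The C1q chains C1qa, C1qb and C1qc, made by macrophages, were not called, at -0.66, -0.40 and -0.43. C1ra lost its edgeR call in 5 of the 6 fits that left out a day 3 library, all but that without WT replicate 3 (adjusted p = 0.0733 to 0.189).

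Of 37 interferon-stimulated genes, 35 had negative fold changes on day 3 with a median of -0.39, but 2 were called, both lower. Mx1, an antiviral GTPase, was at 6.26, 7.73 and 5.82 CPM in WT against 2.80, 2.33 and 2.58 CPM in Bcl3-/- (log2 fold change -1.36, SE 0.23, edgeR adjusted p = 0.00414). Oas3, an oligoadenylate synthetase that senses viral RNA, was at 6.05, 4.17 and 5.22 CPM in WT against 3.71, 2.23 and 2.00 CPM in Bcl3-/- (log2 fold change -0.94, SE 0.28, edgeR adjusted p = 0.0485). Oas3 lost its edgeR call in 5 of the 6 fits that left out a day 3 library, all but that without Bcl3-/- replicate 1 (adjusted p = 0.0571 to 0.177). Oas3 (adjusted p = 0.0925) lost its edgeR call in the fit of the 6 day 3 libraries alone. On day 1 the median of the same list was 2.37, and 23 of the 37 passed edgeR's test of the difference between the days, which 1.12% of all genes tested passed. Over all genes that test gave 183 calls, but 1 or 2 without day 1 Bcl3-/- replicate 2 or 3, day 1 WT replicate 2 or day 3 Bcl3-/- replicate 2, and 475 without day 1 WT replicate 3.

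Cell division genes were lower in all 3 labelled libraries. Of 26 mitosis genes 0 were higher and 22 lower (84.6%), and all 26 fold changes were negative with a median of -0.47. Aurka, the kinase of spindle poles, was at 50.2, 46.5 and 44.95 CPM in WT against 32.2, 31.1 and 29.9 CPM in Bcl3-/- (log2 fold change -0.60, SE 0.06, edgeR adjusted p = 0.000547). Ccna2, cyclin A2, was at 129, 107 and 109 CPM in WT against 76.2, 79.9 and 74.1 CPM in Bcl3-/- (log2 fold change -0.58, SE 0.07, edgeR adjusted p = 0.00137). Kif23, a motor of cytokinesis, was at 57.04, 54.1 and 51.6 CPM in WT against 37.3, 37.05 and 37.7 CPM in Bcl3-/- (log2 fold change -0.54, SE 0.07, edgeR adjusted p = 0.00135). The labelled libraries lay close together in these genes and below every WT library. Of 29 DNA replication genes 16 were lower (55.2%), with all 29 negative and a median of -0.39. Cdc6, a loader of the replicative helicase, stood at 16.5, 16.1 and 13.7 CPM in WT against 8.91, 7.68 and 8.42 CPM in Bcl3-/- (log2 fold change -0.89, SE 0.09, edgeR adjusted p = 0.000679), and the helicase subunit Mcm5 at 78.1, 66.4 and 62.6 CPM in WT against 44.7, 43.5 and 48.8 CPM in Bcl3-/- (log2 fold change -0.60, SE 0.09, edgeR adjusted p = 0.00263). With 1 day 3 library left out, 20 to 22 mitosis and 12 to 18 replication genes were called lower, and the 6 libraries alone gave 16 and 10. The title number as a replicate block left 5 mitosis and 3 replication genes called lower.

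Relative to the WT mean, the median mitosis gene was at 1.05, 0.969 and 0.952 in WT replicates 1, 2 and 3 and at 0.692, 0.754 and 0.740 in Bcl3-/- replicates 1, 2 and 3. Replicate 1, nearest to WT in the dendritic cell genes, was the lowest in the mitosis genes but not in the DNA replication genes. There the medians of Bcl3-/- replicates 1, 2 and 3 were 0.768, 0.764 and 0.745, with replicate 1 the highest. The cell cycle inhibitor gene Cdkn1c (p57) was at 94.4, 217 and 217 CPM in WT against 446, 399 and 386 CPM in Bcl3-/- (log2 fold change 1.22, SE 0.30, edgeR adjusted p = 0.0232). Cdkn1a (p21) and Ccnd2 were lower, at -0.48 and -0.41. Cdkn1c lost its edgeR call without WT replicate 1 (adjusted p = 0.0547) or Bcl3-/- replicate 2 (0.0643). Cdkn1a lost its edgeR call without WT replicate 1 (adjusted p = 0.0959), WT replicate 2 (0.0674), Bcl3-/- replicate 2 (0.0638) or Bcl3-/- replicate 3 (0.0574). Ccnd2 lost its edgeR call without WT replicate 1 (adjusted p = 0.0993), WT replicate 2 (0.0731), Bcl3-/- replicate 2 (0.0805) or Bcl3-/- replicate 3 (0.0626). Cdkn1c (adjusted p = 0.0513), Cdkn1a (0.0726) and Ccnd2 (0.0857) lost their edgeR calls in the fit of the 6 day 3 libraries alone.

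**Figure D5:**
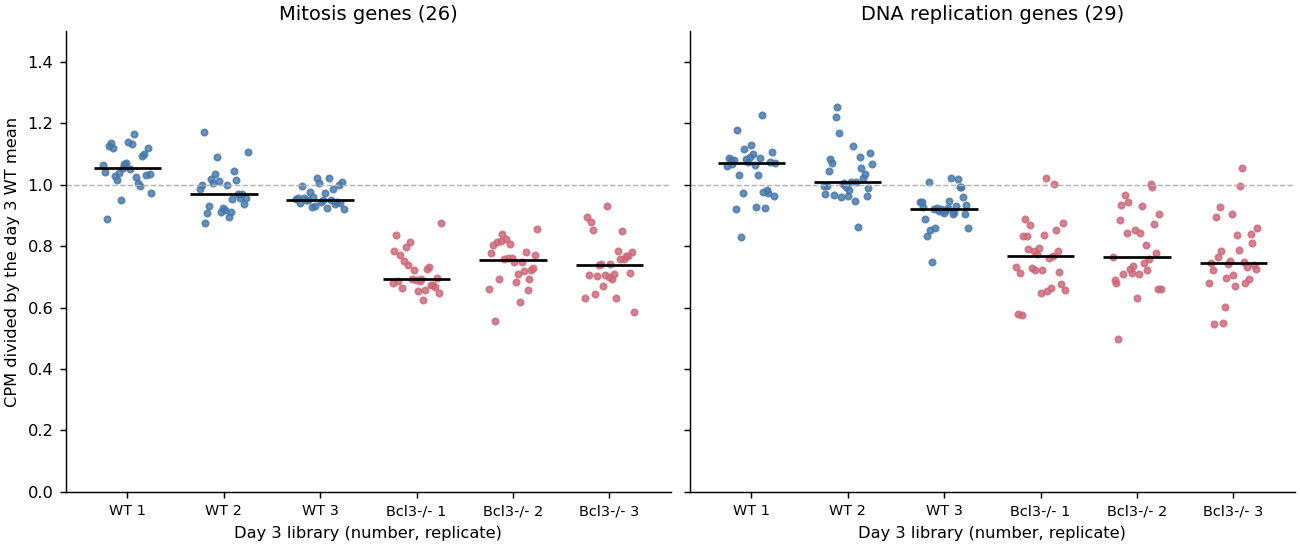
CPM of 26 mitosis genes (left) and 29 DNA replication genes (right) in each day 3 library, divided by the mean of the 3 WT libraries, with black lines at the median of each library. Medians are 0.952 to 1.05 in WT and 0.692 to 0.754 in Bcl3-/- for mitosis, and 0.922 to 1.07 and 0.745 to 0.768 for DNA replication.

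Many promoters of mitotic genes carry a CHR element (cell cycle genes homology region), where the DREAM and MuvB complexes bind, together with CCAAT boxes, where NF-Y binds. Of the 22 mitosis genes called lower, 18 had a RefSeq promoter in the table. The CHR letters TTTGAA, on either strand, were in 13 of the 18 (72.2%, against 17.9% of all promoters), and CCAAT, on either strand, in 14 (77.8%, against 37.4%). Both were in 11 (61.1%, against 6.95%). The whole mitosis list, called or not, had like shares, with CHR letters in 16 of 22 promoters (72.7%), CCAAT in 17 (77.3%) and both in 14 (63.6%). The 6 promoters below were picked because both motifs, in capitals, lie within the stretch printed. Their nearness to the start was therefore fixed by that choice, while the shares above are over the whole promoters. The start falls 20 bases from the right end.
Kif23 (chr9:61946780-61946939, minus strand): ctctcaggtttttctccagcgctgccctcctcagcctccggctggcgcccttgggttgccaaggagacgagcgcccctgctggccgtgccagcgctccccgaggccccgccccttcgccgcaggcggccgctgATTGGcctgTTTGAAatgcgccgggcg
Cdc20 (chr4:118437324-118437483, minus strand): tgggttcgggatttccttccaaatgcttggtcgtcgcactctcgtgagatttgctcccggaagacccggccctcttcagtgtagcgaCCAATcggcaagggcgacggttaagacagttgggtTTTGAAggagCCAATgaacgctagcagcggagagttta
Top2a (chr11:99024170-99024329, minus strand): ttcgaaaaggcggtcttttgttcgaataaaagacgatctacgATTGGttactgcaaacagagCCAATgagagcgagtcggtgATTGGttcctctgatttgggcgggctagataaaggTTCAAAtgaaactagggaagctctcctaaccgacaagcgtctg
Kif11 (chr19:37376242-37376401, plus strand): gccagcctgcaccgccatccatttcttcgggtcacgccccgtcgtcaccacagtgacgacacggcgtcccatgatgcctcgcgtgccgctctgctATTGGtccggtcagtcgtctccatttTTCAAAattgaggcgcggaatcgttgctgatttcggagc
Prc1 (chr7:80294311-80294470, plus strand): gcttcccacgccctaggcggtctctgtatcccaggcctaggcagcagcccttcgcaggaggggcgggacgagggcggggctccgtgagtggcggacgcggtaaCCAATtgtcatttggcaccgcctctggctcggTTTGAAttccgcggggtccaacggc
Ccnb2 (chr9:70421535-70421694, minus strand): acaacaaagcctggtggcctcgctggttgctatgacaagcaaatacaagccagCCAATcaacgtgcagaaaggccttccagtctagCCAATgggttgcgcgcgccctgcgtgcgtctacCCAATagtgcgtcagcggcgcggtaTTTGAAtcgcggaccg
In Cdc20, Top2a and Kif11 the CHR letters begin 18, 23 and 19 bases before the start, and in Kif23 and Ccnb2 just after it. Cdc20, the activator of the anaphase-promoting complex, was at 81.2, 80.9 and 72.5 CPM in WT against 57.8, 59.4 and 57.9 CPM in Bcl3-/- (log2 fold change -0.42, SE 0.06, edgeR adjusted p = 0.00242). Top2a, the topoisomerase that untangles chromosomes, was at 159, 149.6 and 154 CPM in WT against 103, 112 and 119 CPM in Bcl3-/- (log2 fold change -0.48, SE 0.07, edgeR adjusted p = 0.00312). These calls held whichever day 3 library was left out.

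Lipid genes divided by role. All 20 genes of cholesterol synthesis and uptake had negative fold changes with a median of -0.35, and 7 passed (35%). Cyp51, the lanosterol demethylase, was at 554, 509.7 and 534 CPM in WT against 439, 360.0 and 387 CPM in Bcl3-/- (log2 fold change -0.43, SE 0.10, edgeR adjusted p = 0.0184). The count was 1 without WT replicate 1 and 1 without Bcl3-/- replicate 2. Apoe, the apolipoprotein that carries cholesterol out of cells, was at 60.6, 93.5 and 94.2 CPM in WT against 294, 425 and 315 CPM in Bcl3-/- (log2 fold change 2.06, SE 0.21, edgeR adjusted p = 0.000547). Lpl, lipoprotein lipase, was at 42.5, 43.4 and 85.2 CPM in WT against 194, 251 and 234 CPM in Bcl3-/- (log2 fold change 1.98, SE 0.26, edgeR adjusted p = 0.00175). Scd1, a fatty acid desaturase, was lower, at -0.70. Cyp51 lost its edgeR call without WT replicate 1 (adjusted p = 0.0756) or Bcl3-/- replicate 2 (0.0839). Scd1 lost its edgeR call without WT replicate 1 (adjusted p = 0.128), Bcl3-/- replicate 2 (0.109) or Bcl3-/- replicate 3 (0.0693). Of 18 glycolysis and hypoxia genes 1 was higher and 3 lower, led by Pfkp, a phosphofructokinase, at 100.2, 97.8 and 95.6 CPM in WT against 67.3, 60.9 and 63.3 CPM in Bcl3-/- (log2 fold change -0.62, SE 0.06, edgeR adjusted p = 0.000547). Of 16 unfolded protein response genes 5 were lower, and of 12 p53 targets 4, but 0 of either list were called in the 6 libraries alone or without WT replicate 1.

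Markers of other cell types moved in several directions. Of 5 measured adipocyte markers 4 were higher. Pparg, the master factor of fat cells, was at 6.76, 6.05 and 6.70 CPM in WT against 12.1, 14.8 and 14.9 CPM in Bcl3-/- (log2 fold change 1.10, SE 0.13, edgeR adjusted p = 0.00105), and Cebpa, its partner, at 7.11, 6.51 and 9.56 CPM in WT against 16.4, 22.2 and 27.2 CPM in Bcl3-/- (log2 fold change 1.50, SE 0.22, edgeR adjusted p = 0.00265). The defining mature fat cell genes Adipoq and Plin1 had 0 to 13 reads per library. Of 12 fibroblast and tendon markers 5 were higher, with Clec3b at 0.0352, 0.0614 and 0.125 CPM in WT against 1.37, 1.81 and 1.79 CPM in Bcl3-/- (log2 fold change 4.33, SE 0.39, edgeR adjusted p = 0.000547), and 1 lower, the tendon factor Scx (-0.58). Scx lost its edgeR call without WT replicate 2 (adjusted p = 0.0702), Bcl3-/- replicate 2 (0.0817) or Bcl3-/- replicate 3 (0.0602). Scx (adjusted p = 0.0758) lost its edgeR call in the fit of the 6 day 3 libraries alone. Without WT replicate 1 or Bcl3-/- replicate 2 the count of higher markers was 1. Of 12 smooth muscle markers 5 were lower, with Myh11 at 13.4, 9.70 and 10.4 CPM in WT against 4.10, 3.95 and 5.05 CPM in Bcl3-/- (log2 fold change -1.36, SE 0.20, edgeR adjusted p = 0.00236) and Acta2 at -0.43. Acta2 (adjusted p = 0.0597) lost its edgeR call in the fit of the 6 day 3 libraries alone. On log2(FPKM + 1) in limma its adjusted p was 0.0669. Endothelial marker genes summed to 7.92 to 11.1 CPM in WT and 19.3 to 21.98 CPM in the labelled libraries, with 1 of 6 called, Tek at 5.98, 5.09 and 7.93 CPM in WT against 14.6, 17.2 and 16.8 CPM in Bcl3-/- (log2 fold change 1.35, SE 0.21, edgeR adjusted p = 0.00304). Tek alone made up most of these sums in each library. Of 20 macrophage markers 19 had negative fold changes with a median of -0.64, and 2 were called lower (5.6% of all genes were), Cx3cr1 and Csf1r, the receptor of the growth factor M-CSF, at 51.3, 41.2 and 55.9 CPM in WT against 33.9, 23.5 and 22.1 CPM in Bcl3-/- (log2 fold change -0.90, SE 0.17, edgeR adjusted p = 0.00824). Without replicate 1 labelled Bcl3-/-, 9 macrophage markers were called lower. The sum of macrophage markers was 921 to 1346 CPM in WT and 548 to 1103 CPM in the labelled libraries. All 8 neutrophil and red cell markers had at most 8 reads in any library. The part of such cells in the differences between the genotypes was not tested.

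Within 5 Mb of Bcl3 on chromosome 7, 14 of 101 genes tested were called (13.9%), against 9.81% of chromosome 7 and 10.4% of all genes. The targeted gene Bcl3 is itself among the 14. Apoe lies there, and so does Klc3, a kinesin light chain, which was among the 12 largest falls at 6.26, 5.68 and 4.04 CPM in WT against 1.95, 1.68 and 1.68 CPM in Bcl3-/-.

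Compared with the genotype effect on day 1, which called 1473 genes higher and 1021 lower, 460 of the day 3 rises and 339 of the day 3 falls were called in the same direction on day 1, and 23 genes in opposite directions. The interaction test, which asks whether the genotype effects of the days differ, called 28 genes with the higher effect on day 3 and 155 with the lower effect (1.12% of genes, 0.172% and 0.95%). With the code shared by the days taken as a culture block, it called 53 and 239. Spp1 was one of these genes, at -0.06 on day 1 and -1.32 on day 3 (difference -1.27, SE 0.22, edgeR adjusted p = 0.0309). Alpl was not one of them, at 1.22 on day 1 and 1.77 on day 3 (edgeR adjusted p = 0.527). The 183 interaction calls came to between 1 and 475 when single libraries were left out, and to 1 without day 1 Bcl3-/- replicate 3 or day 3 Bcl3-/- replicate 2.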

How the data were processed

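RNA of calvarial osteoblast cultures on day 1 and day 3 (12 libraries) was converted to cDNA with a SMART-seq kit and sequenced by the authors. They trimmed reads with Trim Galore, aligned them to mouse GRCm38 with TopHat2 and counted them per gene with HTSeq. Tool versions, the strand setting and the annotation release are not given in the sources used here. The deposited count table holds whole-number counts per gene, not normalized, and a second table deposited by the authors holds FPKM from Cufflinks, used only as an alternative. The 5 entries for reads outside genes (12.3 to 14.7% of a library's total) were left out, so tests ran on the 49585 Ensembl mouse genes alone. Library totals over genes ran from 20009732 to 41953891. FPKM entries with more than 1 value per library (49) were not used.

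Counts were filtered with edgeR's filterByExpr (16318 genes), scaled by TMM and fitted with glmQLFit (edgeR 4.0.16, R 4.3.3) over all 12 libraries and 4 groups, and day 3 Bcl3-/- was set against day 3 WT in glmQLFTest with Benjamini-Hochberg adjustment. CPM are TMM-scaled, and gene positions are from GENCODE M21 (GRCm38). The members and gene lists were chosen with earlier results of these data known. Named genes were Bcl3, the 12 largest rises and 12 largest falls among called protein-coding genes (non-overlapping groups, average log2 CPM of 1 or more), up to 4 called members of each list by smallest adjusted p and any called member against its list's direction, 11 bone genes whatever their result, and the 10 genes of largest SD among the labelled libraries. Other list members given with values, and the MHC class II, immunoglobulin and Y-linked lists, were picked after their values were seen. Some genes that meet the rule are not reported here. Codes shared by day 1 and day 3 labels were taken as cultures that pair the days, which the labels do not state. Correlations of deviations between days of the same code were 0.24 to 0.33 in WT and -0.16 to -0.02 in Bcl3-/-. Every pair of day 3 libraries differed by more than sampling noise (chi-square per gene at least 12.0). The fit was tested on simulated counts with the same spread in all groups, so that test does not cover the unequal spread of these groups. It recovered 58% of genes changed by 0.7 on the log2 scale and 86% of those changed by 1. Of its 181 calls, 10 were false. Alternatives were DESeq2, other scalings and filters, limma-voom, FPKM with a pseudocount of 1 or 0.1, replicate blocks, and leaving out each library.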

Additional observations from a re-analysis of the deposited data

Results flagged for a closer look

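The genotype effect of 12 named genes given here differed between the days in edgeR's interaction test. Values are log2 fold changes of libraries labelled Bcl3-/- over WT, with the difference of day 3 minus day 1 and its edgeR adjusted p.

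Cx3cr1, the fractalkine receptor, was at -0.68 on day 1 and -3.29 on day 3 (difference -2.61, adjusted p = 0.0499). Spp1, osteopontin, was at -0.06 on day 1 and -1.32 on day 3 (difference -1.27, adjusted p = 0.0309). Sp7, osterix, was at -0.92 on day 1 and 0.42 on day 3 (difference 1.34, adjusted p = 0.0476), and Tgfb2, a TGF-β ligand, at -0.21 on day 1 and 0.77 on day 3 (difference 0.98, adjusted p = 0.0335). Oas3, an interferon-stimulated gene, was at 1.06 on day 1 and -0.94 on day 3 (difference -2.004, adjusted p = 0.047). Nuf2, a kinetochore gene, was at -0.03 on day 1 and -0.45 on day 3 (difference -0.42, adjusted p = 0.0444), and Pfkp, a phosphofructokinase, at -0.22 on day 1 and -0.62 on day 3 (difference -0.40, adjusted p = 0.0428).

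Lipid synthesis genes made up 5 of the 12, a share shaped by the rule that named the genes. Over whole lists, 23 of 37 interferon-stimulated genes passed this test, against 1.12% of all genes tested. So did 11 of 20 genes of cholesterol synthesis and uptake and 5 of 14 of fatty acid and lipid handling. Hsd17b7 was at 0.27 on day 1 and -0.48 on day 3 (difference -0.74, adjusted p = 0.0337). Cyp51 was at 0.45 on day 1 and -0.43 on day 3 (difference -0.88, adjusted p = 0.0256). Idi1 was at 0.50 on day 1 and -0.46 on day 3 (difference -0.96, adjusted p = 0.0256). Srebf1, a factor that switches on such genes, was at 0.34 on day 1 and -0.35 on day 3 (difference -0.69, adjusted p = 0.0335). Scd1, a desaturase, was at 1.03 on day 1 and -0.70 on day 3 (difference -1.73, adjusted p = 0.0206). The 183 interaction calls came to between 1 and 475 when single libraries were left out, with 1 call left without day 1 Bcl3-/- replicate 3 or day 3 Bcl3-/- replicate 2. No cause of these differences was tested.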

How the results depend on the processing

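The 1693 day 3 calls were 814 in the 6 day 3 libraries alone, 1030 on log2(FPKM + 1), 978 on log2(FPKM + 0.1) and 698 to 1879 with single libraries left out, and the 503 calls over 2-fold were 149 and 288 on those FPKM scales, 198 with an FPKM filter and 248 to 771 with libraries left out. Calls among list members (177) were 108 and 109 on the FPKM scales and 100 to 201 with libraries left out, and those of named genes (142) were 89, 92 and 88 to 141. The 183 interaction calls were 455 in DESeq2, 552 with no count filter, 366 in limma-voom with culture as a random effect, 5 and 4 on the FPKM scales, and 1 to 475 with libraries left out. With the culture as a replicate block, which pairs the days, the interaction gave 292. Whether title numbers pair the genotypes on day 3 was not settled. Correlations of deviations for the same number were 0.06, 0.21 and 0.08, and 4 of 6 libraries were nearest to their own number. With that number as a replicate block there were 563 calls, 296 over 2-fold, 100 among list members and 90 named genes. Calls were 46.1% higher, 59.7% higher in the 6 libraries alone, 64.5% with the title block and 37.4 and 31.1% on the FPKM scales. DESeq2 gave 1066 higher and 1244 lower. The ratio of the genotypes' SDs, 1.07, stayed between 1.05 and 1.09. Of the named-gene values under alternatives, 3269 kept direction and side of the threshold, 451 lost the threshold and 23 gained it. The other 15 changed sign, all in 5 genes that were not called. Ddx3y (0.21) was at -0.29 with culture as a random effect, -0.27 with quality weights, -0.0071 on log2(FPKM + 0.1) and -0.88 to 1.34 with single libraries left out, and Kdm5d (0.30) at -0.40 and -0.37 in the first 2 of these and -0.61 to 1.41 with libraries left out. With libraries left out Runx2 (-0.05) ranged from -0.17 to 0.036 and Tnfsf11 (0.10) from -0.11 to 0.30. Col1a1 is listed at 0 FPKM in 5 of the 6 day 3 libraries and at 7312 in Bcl3-/- replicate 3, so its differences of 4.28 and 5.39 on the FPKM scales rest on 1 library. The causes were not tested. With 3 pooled cultures a genotype, 4358 genes were at an unadjusted p under 0.05 and 1693 passed the adjustment.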
